A study of Homo sapiens with 8 samples.

Results

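Cadherins and protocadherins are cell-surface proteins built from repeated extracellular cadherin domains. Members were taken by symbol from the deposited count table: every gene named CDH or PCDH and a number, with the cluster letters of the alpha, beta and gamma protocadherins allowed between. This gave 87 of the 26475 genes in the table. They comprise 23 CDH genes (18 classical and 5 atypical), 11 non-clustered protocadherins (3 of the delta-1 type, 5 of the delta-2 type and 3 others) and 53 clustered protocadherins (15 alpha, 16 beta and 22 gamma). PCDH11X and PCDH11Y end in a letter and fall outside that rule.

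Messenger RNA was sequenced from BT474, a line established from a human breast carcinoma that carries extra copies of ERBB2. The submitters' genotype label divides the 8 libraries into NPY1R high and NPY1R low, with 4 libraries each, and the cells of both were plated below confluence. The way in which the cells were divided is not given in the sources used here, nor is any drug for these libraries, although the series title concerns cells that persist under lapatinib. Nothing in the labels says that the 4 libraries of a group came from separate cultures, so p-values measure the spread between these libraries, which may be technical.

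Classical cadherins bind the same cadherin on a neighbouring cell and are tied to actin through beta-catenin and alpha-catenin. In breast epithelium E-cadherin, the product of CDH1, holds luminal cells together, and P-cadherin, the product of CDH3, is best known from the myoepithelial layer. Protocadherins lack the catenin-binding tail. The non-clustered delta protocadherins carry conserved cytoplasmic motifs of their own, and the clustered alpha, beta and gamma protocadherins lie in tandem on chromosome 5, where each neuron uses a few of the many alternative promoters.

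Libraries held between 18025648 and 30609791 expected counts. Of 14008 genes that passed the filter on low counts, 1904 (13.6%) passed a threshold of 0.05 on Benjamini-Hochberg adjusted p-values from edgeR's quasi-likelihood test, 810 higher (5.78%) and 1094 lower (7.81%) in NPY1R high, and genes past it are referred to as called. Higher genes were 42.5% of these, but 54.0% with library totals in place of TMM scaling, 56.3% with upper-quartile factors, 52.7% and 53.1% with NPY1R low replicate 1 or 2 as the TMM reference, 53.2% with no filter and 53.6% with a minimum of 1 CPM. NPY1R itself stood at 856.5 ± 170.4 CPM (counts scaled to library size with TMM factors, SD, n = 4) in NPY1R high against 95.5 ± 5.65 CPM in NPY1R low, in the direction of the labels. The estrogen receptor gene ESR1 was higher by 0.59 and the progesterone receptor gene PGR by 1.71 on the log2 scale. Summed luminal markers spanned 6411 to 7492 CPM in NPY1R high against 6085 to 8415 CPM in NPY1R low, with GATA3 and ESR1 of the 8 higher and EPCAM lower. Markers of other cell types were low in both groups. The 6 basal markers summed to 9.62 to 13.1 CPM in NPY1R high against 9.28 to 12.1 CPM in NPY1R low. In NPY1R high and low TP63 had means of 6.36 and 6.28 CPM and OXTR of 2.81 and 2.51 CPM, with KRT14 at 0. The 8 fibroblast markers summed to 10.9 to 17.5 and 10.5 to 17.6 CPM, nearly all of it COL1A1, with COL1A2, PDGFRB and DCN at 0. The 5 endothelial markers summed to 9.22 to 15.6 and 13.5 to 18.2 CPM, nearly all of it VWF, with TEK at 0, and the leukocyte markers to 0.551 to 1.19 and 0.549 to 0.772 CPM, mostly LYZ, with CD3E at 0. The 5 neural markers summed to 3.37 to 6.88 and 2.91 to 4.55 CPM, mostly MAP2. Of these other markers only 3 basal, 1 fibroblast, 1 endothelial, 1 leukocyte and 2 neural genes passed the filter, so the rest could not be called. None of the tested ones was called in either direction, where 13.6% of all tested genes were.

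Of the 87 members, 38 passed the filter, and 11 of these 38 (28.9%) were called: 9 higher and 2 lower in NPY1R high, beside the 13.6% called among all tested genes. The 9 were PCDH7, PCDH9, PCDH10, PCDH19, CDH11, CDH26, PCDHB9, PCDHB10 and PCDHB11, and the 2 were CDH3 and CDH13. The filter itself let 6 members through that reached its level of 0.374 CPM in all 4 NPY1R high libraries but not in all 4 NPY1R low ones, 2 members for which the reverse held, and 4 that did so in neither group. None of those 12 was among the 11 called. Over the 38 the median log2 change was 0.40, against -0.03 over all tested genes. The groups did not overlap for 13 members with NPY1R high above and for 3 with it below, where 20.2% of all tested genes had no overlap, 8.77% above and 11.4% below. These are bulk samples, in which fewer cells that make a transcript and less transcript per cell cannot be told apart.

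**Figure D1:**
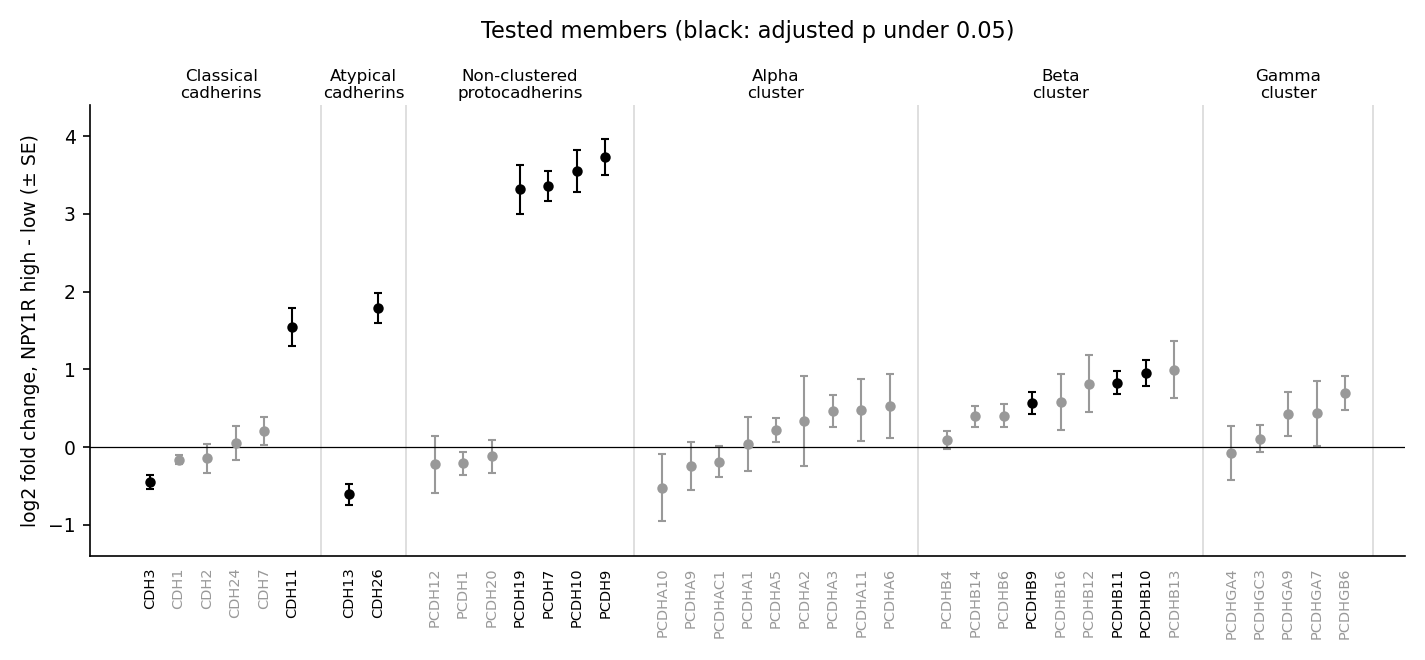
Log2 fold change (NPY1R high minus low, vertical axis, with its standard error) of the 38 tested members, grouped by family along the horizontal axis; black marks the 11 with an adjusted p under 0.05. PCDH7, PCDH9, PCDH10 and PCDH19 lie between 3.32 and 3.73, above every other tested member, and the 23 clustered genes lie between -0.52 and 1.00.

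Among the tested members the delta protocadherins held the largest differences. Of 8 delta members 5 were tested, and 4 of them rose: PCDH7 and PCDH9 of the delta-1 type, and PCDH10 and PCDH19 of the delta-2 type. Each was called higher by a log2 of more than 3. Of all tested genes 5.78% were called higher, and 0.578% were called higher by a log2 of 2 or more, a lower bar than 3. Summed, these 4 genes had 34.5, 35.3, 43.2 and 47.4 CPM in NPY1R high replicates 1 to 4, and 3.66, 4.73, 2.93 and 3.10 CPM in NPY1R low replicates 1 to 4. These 4 genes were picked because they were called higher, so the gap between the sums is only a description. PCDH1, the tested delta member that was not called, is not in the sums. PCDH7 and PCDH10 lie far apart on chromosome 4, and PCDH9 and PCDH19 lie on chromosomes 13 and X.

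PCDH7, whose cytoplasmic tail binds protein phosphatase 1, lies on the plus strand at chr4:30720415-31146805 (GENCODE release 29, GRCh38). It had 13.8, 11.8, 15.2 and 17.6 CPM in the NPY1R high libraries and 1.38, 1.89, 1.19 and 1.18 CPM in the NPY1R low ones. The lowest NPY1R high library was thus far above the highest NPY1R low one. Its means were 14.6 ± 2.42 and 1.41 ± 0.334 CPM (SD, n = 4 each), which is a log2 fold change of 3.36 (SE 0.19, 10.2-fold, edgeR adjusted p = 5.16e-06).

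PCDH9, a delta-1 protocadherin best known from brain, lies on the minus strand at chr13:66302834-67230445. Its levels were 6.56, 7.73, 8.87 and 7.10 CPM in NPY1R high against 0.403, 0.876, 0.458 and 0.511 CPM in NPY1R low. The groups were well apart, and every NPY1R low library was under 1 CPM. The means were 7.57 ± 0.990 and 0.562 ± 0.214 CPM (SD, n = 4 each), and the log2 fold change of 3.73 (SE 0.23, 13.3-fold, edgeR adjusted p = 8.52e-06) was the largest among the 38 tested members. Antisense genes overlap PCDH9 in the annotation. The kit is stranded, but whether the counting used strand is not given in the sources used here. The table lists PCDH9-AS2, PCDH9-AS3 and PCDH9-AS4 at 0 counts in all 8 libraries.

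PCDH10, a delta-2 protocadherin whose promoter is often methylated in carcinomas, lies on the plus strand at chr4:133149315-133208606. The NPY1R high libraries had 8.07, 8.26, 9.44 and 10.3 CPM, and the NPY1R low libraries 1.28, 0.525, 0.458 and 0.746 CPM. Replicate 1 was the highest of the NPY1R low libraries and still far below every NPY1R high one. With means of 9.02 ± 1.05 and 0.751 ± 0.370 CPM (SD, n = 4 each), PCDH10 was 11.7-fold higher, a log2 of 3.55 (SE 0.27, edgeR adjusted p = 2.35e-05).

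PCDH19, the X-linked delta-2 protocadherin mutated in a form of childhood epilepsy, lies on the minus strand at chrX:100291644-100410273. It ranged more widely among NPY1R high libraries than the other delta members, with 6.05, 7.55, 9.73 and 12.4 CPM, against 0.604, 1.44, 0.824 and 0.668 CPM in NPY1R low. The groups did not overlap. The means were 8.93 ± 2.76 and 0.883 ± 0.380 CPM (SD, n = 4 each), and the log2 fold change was 3.32 (SE 0.31, edgeR adjusted p = 0.000102). The log2 difference of PCDH19, NPY1R high minus low, was 2.72 within replicates 1 and 2 alone and 3.72 within replicates 3 and 4 alone. The same values were 2.91 and 3.68 for PCDH7, 3.37 and 3.78 for PCDH9, and 3.16 and 3.86 for PCDH10.

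The promoters of PCDH7 and PCDH19 are shown because both genes rose by about the same fold while their promoters differ in CpG content. They are the 250 bases before the RefSeq start on GRCh38.p14, written on the gene's own strand (chr4:30720119-30720368 and chrX:100410274-100410523), and the capitals mark CpG dinucleotides, the sites of DNA methylation, which was not measured here.
PCDH7: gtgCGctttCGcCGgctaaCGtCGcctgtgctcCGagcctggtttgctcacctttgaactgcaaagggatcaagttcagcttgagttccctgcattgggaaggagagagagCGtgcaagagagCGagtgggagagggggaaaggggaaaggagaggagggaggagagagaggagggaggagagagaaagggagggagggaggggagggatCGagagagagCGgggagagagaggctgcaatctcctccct
PCDH19: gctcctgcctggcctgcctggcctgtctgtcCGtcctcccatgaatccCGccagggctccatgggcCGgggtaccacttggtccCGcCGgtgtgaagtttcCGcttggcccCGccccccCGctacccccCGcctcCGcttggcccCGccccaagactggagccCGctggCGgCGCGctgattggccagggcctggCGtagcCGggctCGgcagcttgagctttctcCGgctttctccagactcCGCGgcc
PCDH7 had 10 CpG sites in its window and PCDH19 had 21, where the median of the 35116 promoters of the same length in the table was 11. A RefSeq promoter was found for 68 of the 87 members. The letters AGGTCA, an arm of the estrogen response element, were searched on both strands and were in 12.1% of all promoters and in 0 of the 7 delta promoters in the table. The letters CACCTG, the E-box bound by SNAI and ZEB factors, were in 17.5% of all promoters and in 1 delta promoter. These counts describe letters in short windows and say nothing of binding.

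The remaining tested delta member, PCDH1, an epithelial protocadherin of airway and other linings, was not called. It had 16.3, 14.8, 10.7 and 13.8 CPM in NPY1R high against 17.3, 18.1, 15.3 and 13.6 CPM in NPY1R low. These ranges overlapped, with a log2 fold change of -0.21 (SE 0.14, edgeR adjusted p = 0.410). PCDH12, known from endothelium, and PCDH20 belong to neither delta type, and had log2 changes of -0.22 and -0.12 with overlapping groups. Of the delta members under the filter, PCDH18 was at 0 in all 8 libraries, and PCDH8 had 2 counts in each group. PCDH17 had 33 counts over the 4 NPY1R high libraries and 5 over the NPY1R low ones. It was picked out after its values were seen, and without the filter its log2 change was 2.72 (SE 0.76, edgeR adjusted p = 0.0378).

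A further delta-1 gene, PCDH11X, sits on the X chromosome with a near-identical copy, PCDH11Y, on the Y chromosome, and reads of one can be counted for the other. The 2 were therefore summed, a choice made after the data were seen. Their sum was 42.6 ± 4.81 CPM in NPY1R high against 19.4 ± 1.62 CPM in NPY1R low (SD, n = 4 each), which is a log2 change of 1.13 (SE 0.10, edgeR adjusted p = 5.72e-05).

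**Figure D2:**
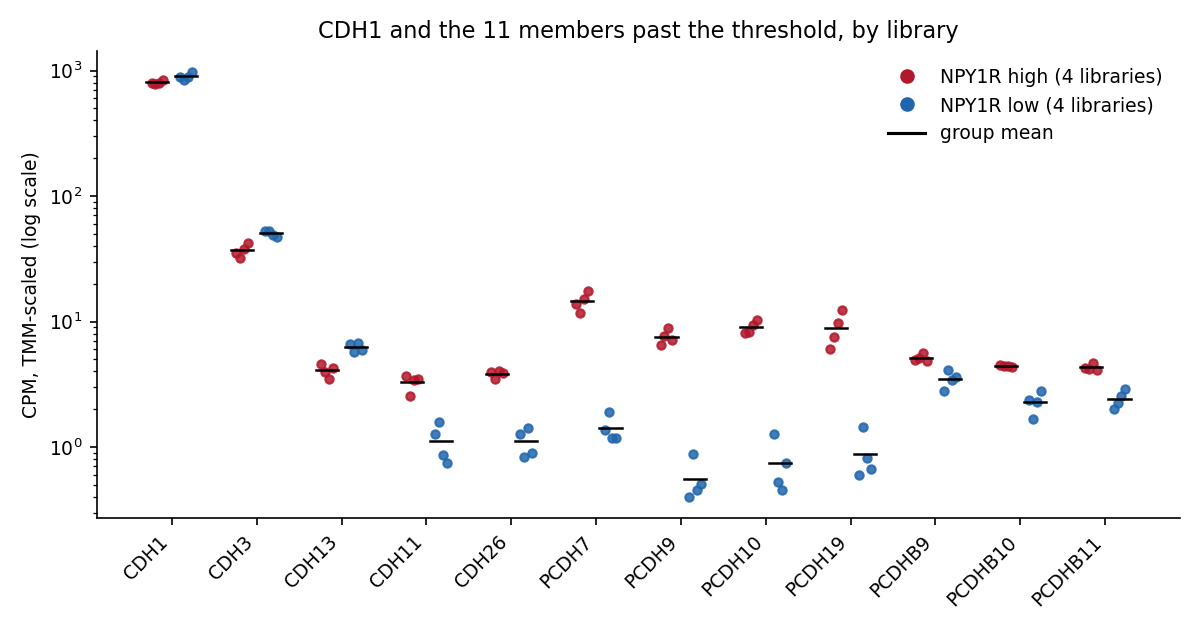
CPM on a log axis for CDH1 and the 11 called members, with a point per library (red NPY1R high, blue NPY1R low, 4 each) and a bar at the group mean. The 4 delta protocadherins separate by about a decade, CDH1 and CDH3 stand at the highest levels, and the PCDHB genes differ by less than the delta genes.

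The classical cadherins were led by CDH1 in both groups. Per kilobase of its longest transcript CDH1 had 174 CPM on average over the 8 libraries, 19.7 times CDH3, the next member, at 8.84. With the median transcript length in place of the longest, CDH1 was 4.85 times CDH3. These 2 took ranks 1 and 2 with either length, while the order of the members below them changed. PCDH7 stood at 2.16 CPM per kilobase in NPY1R high and 0.208 in NPY1R low, against 165 and 184 for CDH1. CDH1 made up 80.0% to 80.6% of all member counts in the NPY1R high libraries and 83.3% to 87.2% in the NPY1R low ones.

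CDH1 lies on the plus strand at chr16:68737225-68835548. Its levels were 800.5, 783, 795 and 839 CPM in NPY1R high against 894, 844, 886 and 974 CPM in NPY1R low. All 4 NPY1R high libraries were below all 4 NPY1R low ones, by a narrow margin. The means were 804.5 ± 24.0 and 899.5 ± 54.0 CPM (SD, n = 4 each), which is a log2 change of -0.16 (SE 0.06) that was not called (edgeR adjusted p = 0.0982). It was called in edgeR with an offset for transcript GC content (adjusted p = 0.0260), with that offset and the replicate block (0.0180), and where the fit had a term that set replicates 1 and 2 apart from 3 and 4 (0.0437).

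CDH3, whose end lies 14609 bases before the start of CDH1 on the same strand (chr16:68636189-68722616), fell. It had 35.1, 31.9, 38.0 and 42.4 CPM in NPY1R high against 52.6, 52.5, 49.4 and 46.8 CPM in NPY1R low. Replicate 4 was the highest NPY1R high library and the lowest NPY1R low one, and the groups did not overlap. The log2 change was -0.45 (SE 0.09, edgeR adjusted p = 0.00831). The log2 difference, NPY1R high minus low, was -0.65 within replicates 1 and 2 alone and -0.26 within replicates 3 and 4 alone.

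The N-cadherin gene CDH2, the mesenchymal and neural classical cadherin, was low and not called. Its levels of 4.23, 5.69, 4.67 and 2.97 CPM in NPY1R high overlapped the 5.54, 5.15, 4.30 and 4.52 CPM in NPY1R low. Its log2 change was -0.14 (SE 0.19, edgeR adjusted p = 0.708), and without NPY1R high replicate 4 it was 0.03. In the cadherin switch of epithelial-mesenchymal transition CDH1 falls while CDH2 rises, and neither gene was called here.

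CDH11, a type II cadherin known from osteoblasts and mesenchyme, lies on the minus strand at chr16:64943753-65126112 and rose. It had 3.71, 2.57, 3.44 and 3.47 CPM in NPY1R high against 1.28, 1.58, 0.869 and 0.746 CPM in NPY1R low. NPY1R high replicate 2 was the lowest of its group and still above every NPY1R low library. The means were 3.30 ± 0.502 and 1.12 ± 0.381 CPM (SD, n = 4 each), and the log2 change was 1.54 (SE 0.24, edgeR adjusted p = 0.00217). The log2 difference, NPY1R high minus low, was 1.07 within replicates 1 and 2 alone and 1.97 within replicates 3 and 4 alone. The other tested type II genes, CDH7 and CDH24, had log2 changes of 0.21 and 0.05 with overlapping groups and were not called.

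Both tested atypical cadherins were called, in opposite directions. CDH26, a cadherin of epithelia known from allergic inflammation, lies at chr20:59958427-60034011 and had 3.95, 3.46, 4.02 and 3.91 CPM in NPY1R high against 1.28, 0.841, 1.42 and 0.903 CPM in NPY1R low. All NPY1R high libraries stood above all NPY1R low ones, with a log2 change of 1.79 (SE 0.19, 3.46-fold, edgeR adjusted p = 0.000212). CDH13, which encodes T-cadherin, held in the membrane by a lipid anchor without a cytoplasmic tail, lies at chr16:82626803-83800640. It had 4.60, 3.98, 3.47 and 4.30 CPM in NPY1R high against 6.61, 5.67, 6.77 and 5.89 CPM in NPY1R low. The NPY1R high libraries were all lower, with a log2 change of -0.61 (SE 0.13, edgeR adjusted p = 0.0120). Antisense and other non-coding genes overlap CDH13 in the annotation.

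Of the 49 members under the filter, 7 had no count in any library (CDH9, CDH16, CDH17, CDH19, CDH20, PCDH15 and PCDH18), where 0 counts in a library still allow up to 3. In all 18 of the 49, those 7 among them, had under 10 counts over the 8 libraries. With no filter, 14 of the 80 members with a count were called, where 8.65% of all 19758 genes then tested were called, and the 3 added were PCDH17, CDH10 and CDH18, named here after their values were seen. CDH10, a type II cadherin, had 17, 28, 6 and 1 counts in NPY1R high and 2, 1, 0 and 2 in NPY1R low, so most of its counts came from replicates 1 and 2 of NPY1R high. CDH18, also of type II, had 7, 13, 5 and 3 counts in NPY1R high and 0 in every NPY1R low library. It was 9.69-fold higher if the NPY1R low libraries together are given 3 counts. That value leaves out the error of the NPY1R high counts and the spread between libraries. Without the filter, edgeR's quasi-likelihood test gave adjusted p values of 0.0320 for CDH10 and 0.00938 for CDH18.

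The clustered protocadherins were counted singly and by cluster. Of 53 genes 23 were tested and 3 rose (13.0%, near the 13.6% of all tested genes), all of them beta genes. Of the 16 beta genes 9 were tested, with log2 changes from 0.09 to 1.00, and none of the 9 was below 0. None of the 9 tested alpha genes (-0.52 to 0.53) or 5 tested gamma genes (-0.08 to 0.70) was called. Alpha and gamma transcripts share their last exons within a cluster, and beta genes are similar single-exon copies, so expected counts of single genes rest on how the authors' counting divided shared reads. The counts of each cluster were therefore also summed.

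The beta cluster as a sum rose. It had 34.7, 35.6, 37.0 and 34.3 CPM in NPY1R high against 23.8, 25.6, 27.8 and 26.6 CPM in NPY1R low. Every NPY1R high library was above every NPY1R low one, with means of 35.4 ± 1.18 and 25.9 ± 1.68 CPM (SD, n = 4 each) and a log2 change of 0.45 (SE 0.07) that had an adjusted p of 0.00203 by edgeR's test. The alpha sum was 15.1 ± 1.25 and 13.6 ± 1.45 CPM (SD, n = 4 each), with overlapping groups and a log2 change of 0.15 (SE 0.11, edgeR adjusted p = 0.429). The gamma sum, at 26.2, 26.1, 17.98 and 24.6 CPM in NPY1R high against 21.5, 21.4, 21.2 and 17.1 CPM in NPY1R low, had a log2 change of 0.23 (SE 0.13, edgeR adjusted p = 0.327). NPY1R high replicate 3 was the low library of its group, and without it the gamma change was 0.38 (edgeR adjusted p = 0.0442). Whether the beta change differs from those of the alpha and gamma sums was not tested.

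PCDHB10 (chr5:141192353-141195642) had 4.50, 4.44, 4.39 and 4.37 CPM in NPY1R high against 2.39, 1.67, 2.28 and 2.79 CPM in NPY1R low. The NPY1R high libraries were nearly alike and all above the others, with a log2 change of 0.95 (SE 0.16, edgeR adjusted p = 0.00342). Its neighbour PCDHB11 (chr5:141199582-141203779) had 4.26, 4.202, 4.63 and 4.13 CPM against 2.01, 2.24, 2.56 and 2.91 CPM, again without overlap, a log2 change of 0.83 (SE 0.15, edgeR adjusted p = 0.00442). On the other side of PCDHB10 lies PCDHB9 (chr5:141187127-141191541), so that the 3 called beta genes are adjacent.

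PCDHB9 had 4.95, 5.16, 5.63 and 4.83 CPM in NPY1R high against 2.81, 4.14, 3.40 and 3.61 CPM in NPY1R low. The groups did not overlap, but NPY1R low replicate 2 came close to the NPY1R high libraries. The log2 change was 0.56 (SE 0.14, edgeR adjusted p = 0.0266). That call was lost without NPY1R high replicate 1 (0.0578), 2 (0.0643) or 3 (0.0632) and without NPY1R low replicate 1 (0.0603) or 3 (0.0767), where these values are adjusted p in edgeR.

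PCDHB4 was the beta gene with the most counts and was not called. It had 10.03, 9.71, 10.999 and 8.65 CPM in NPY1R high against 8.89, 9.11, 10.6 and 8.37 CPM in NPY1R low, ranges that overlapped almost fully. Its share of the beta counts was 27.8% ± 2.00 in NPY1R high and 35.7% ± 2.98 in NPY1R low (SD, n = 4 each). PCDHB10 made up 12.5% ± 0.465 and 8.83% ± 1.83, and PCDHB11 12.2% ± 0.307 and 9.35% ± 1.11. These shares are a description and were not tested.

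Of the 20 clustered genes that were tested and not called, a few had groups that did not overlap, and they are named here after their values were seen. PCDHB14 had 4.23, 4.83, 5.21 and 4.90 CPM in NPY1R high against 3.12, 3.78, 3.66 and 4.01 CPM in NPY1R low, a log2 change of 0.40 (SE 0.13, edgeR adjusted p = 0.0803). PCDHB6 had 3.57, 3.83, 3.40 and 4.13 CPM against 2.32, 3.22, 2.93 and 2.79 CPM (log2 change 0.41, SE 0.15, edgeR adjusted p = 0.106). The narrow gaps between their groups lay within the range seen inside each group. PCDHB12, at about 1 CPM, and the alpha gene PCDHA3, under 1 CPM, likewise had all NPY1R high libraries above the NPY1R low ones, with log2 changes of 0.81 (SE 0.37) and 0.46 (SE 0.21). PCDHGB6 was the gamma gene with the largest change among those tested, at 4.03, 2.81, 2.24 and 3.05 CPM in NPY1R high against 1.51, 2.33, 2.12 and 1.57 CPM in NPY1R low. Its groups overlapped in a single pair of libraries, with a log2 change of 0.70 (SE 0.22, edgeR adjusted p = 0.0698). PCDHGB6 was called with upper-quartile factors (adjusted p = 0.0489 in edgeR), with DESeq2 (0.0374), with the term that set replicates 1 and 2 apart from 3 and 4 (0.0433) and without NPY1R high replicate 3 (0.0382). PCDHB14 was called with that term (0.0444), and PCDHB13, a further uncalled beta gene, without NPY1R low replicate 4 (adjusted p = 0.0354 in edgeR).

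**Figure D3:**
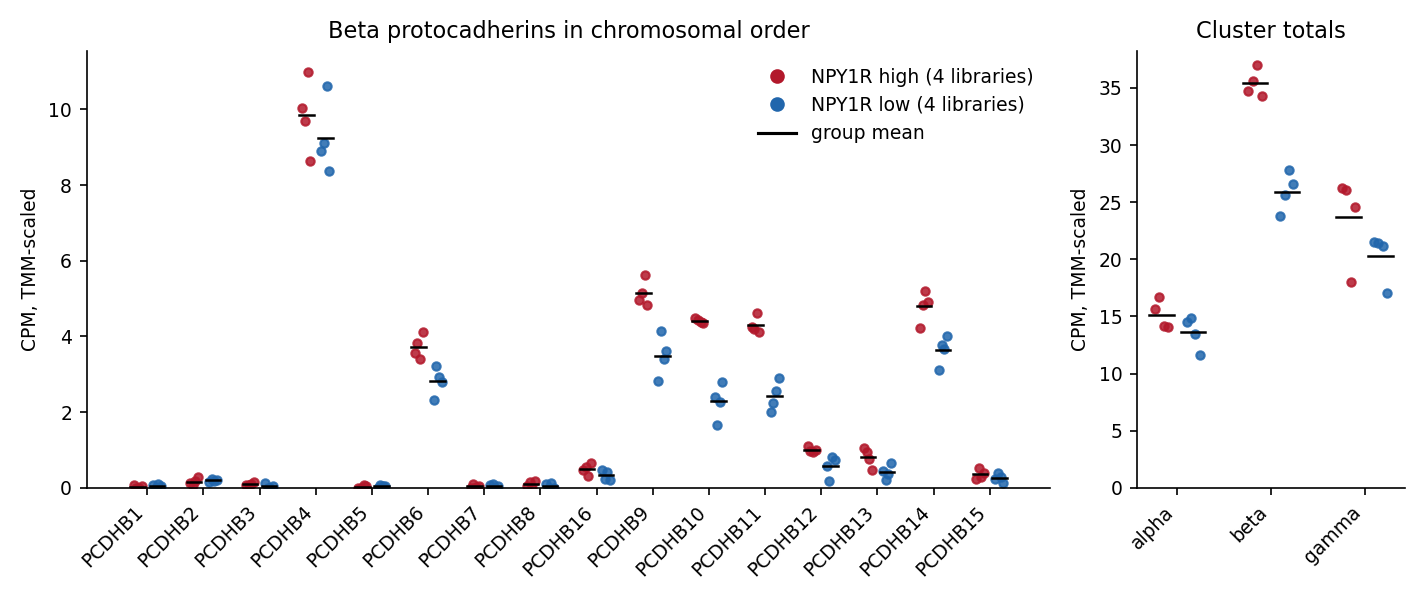
CPM per library (red NPY1R high, blue NPY1R low, 4 each, bar at the mean) for the 16 beta protocadherins in chromosomal order on the left and for the 3 cluster sums on the right. PCDHB9, PCDHB10 and PCDHB11 lie side by side and are higher in NPY1R high, PCDHB4 overlaps between groups, and only the beta sum separates the groups.

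The alpha and gamma clusters were each dominated by few genes. PCDHA5 held 40.8% ± 2.24 of alpha counts in NPY1R high and 38.8% ± 4.59 in NPY1R low, and PCDHAC1 20.3% ± 1.15 and 25.5% ± 4.70 (SD, n = 4 each). PCDHA5 had 6.36, 6.75, 6.20 and 5.41 CPM in NPY1R high against 6.61, 5.32, 5.004 and 4.25 CPM in NPY1R low, with overlap. PCDHGC3, a C-type gamma gene expressed in many tissues, held 60.4% ± 3.58 of gamma counts in NPY1R high and 65.6% ± 4.63 in NPY1R low (SD, n = 4 each). Its levels were 15.8, 16.9, 10.1 and 14.9 CPM in NPY1R high against 15.1, 14.6, 13.5 and 10.3 CPM in NPY1R low. The groups overlapped, and its log2 change of 0.11 (SE 0.18) had an adjusted p of 0.776 by edgeR's test.

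Promoters of clustered protocadherins carry a conserved element with the core letters CGCTG, near which the insulator protein CTCF binds. Stretches of 100 bases on the plus strand (GRCh38.p14) are shown for called and uncalled genes, PCDHB10 at chr5:141192253-141192352, PCDHB9 at chr5:141187027-141187126, PCDHB4 at chr5:141121699-141121798, PCDHA5 at chr5:140821504-140821603 and PCDHGC3 at chr5:141475847-141475946. Each ends just before the gene's start in GENCODE release 29, which lies at the RefSeq start in PCDHB10 and upstream of it in the other 4. In the beta genes capitals mark GGTGGCGCTG, the run of 10 bases ending in CGCTG that the most beta promoters hold, and in the others they mark CGCTG.
PCDHB10: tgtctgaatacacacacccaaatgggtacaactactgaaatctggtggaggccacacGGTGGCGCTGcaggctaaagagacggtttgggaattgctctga
PCDHB9: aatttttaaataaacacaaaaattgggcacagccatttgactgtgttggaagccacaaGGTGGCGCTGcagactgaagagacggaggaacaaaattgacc
PCDHB4: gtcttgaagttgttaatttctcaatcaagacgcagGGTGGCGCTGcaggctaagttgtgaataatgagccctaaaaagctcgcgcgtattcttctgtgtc
PCDHA5: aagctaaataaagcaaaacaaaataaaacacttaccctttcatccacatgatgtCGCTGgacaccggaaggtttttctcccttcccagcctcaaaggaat
PCDHGC3: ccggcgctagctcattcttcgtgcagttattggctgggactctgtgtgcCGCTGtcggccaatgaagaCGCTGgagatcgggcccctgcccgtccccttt
Positions are counted from the RefSeq start, not from the end of the printed stretch. The marked run begins at position -43 in PCDHB10, -76 in PCDHB9 and -84 in PCDHB4. The called PCDHB10 and PCDHB9 and the uncalled PCDHB4 thus carry it. For PCDHB11, also called, no RefSeq promoter was found. Within 250 bases before the RefSeq start, on both strands, GGTGGCGCTG was in 11 of 14 beta promoters, in 0 of 13 alpha and 0 of 20 gamma promoters, and in 79 of all 35116 (0.225%). The run was picked as the one most frequent in beta promoters, so its share there is a description. It was not in the windows of PCDHB1, PCDHB8 and PCDHB14. The shorter CGCTG was in 9 of 13 alpha, 11 of 14 beta and 20 of 20 gamma promoters, against 40.8% of all promoters.

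Genes that work with cadherins were read from lists. Of 25 catenins and junction partners 23 were tested, and 1 was called (4.35%, against 13.6% of all tested genes), with a median log2 change of -0.04. Beta-catenin (CTNNB1) had 369 ± 25.1 CPM in NPY1R high against 386 ± 26.0 CPM in NPY1R low, alpha-catenin (CTNNA1) 647 ± 29.6 and 682 ± 8.10 CPM, and p120-catenin (CTNND1) 418 ± 12.1 and 416 ± 15.9 CPM (SD, n = 4 each). Their log2 changes of -0.06, -0.08 and 0.01 were not called, and the sign of CTNNB1 turned without NPY1R low replicate 4 (0.02), and that of CTNND1 turned with the GC offset, alone or with the block (-0.02), and without replicate 2 of NPY1R high (-0.0099) or low (-0.0151). The polarity gene PARD3 was lower, with a log2 change of -0.30 (SE 0.06, edgeR adjusted p = 0.00885). Its adjusted p in edgeR was 0.0652 without NPY1R high replicate 4 and 0.0578 without NPY1R low replicate 1.

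Cadherin-superfamily genes outside the naming rule held 5 calls among 16 tested of 25 (31.2%, against 13.6% of all tested genes). Of these calls 4 were higher and 1 lower, and the median log2 change of the 16 was 0.14. The giant cadherin FAT3 had 3.19, 4.28, 1.95 and 2.26 CPM in NPY1R high against 0.235, 0.350, 0.183 and 0.0786 CPM in NPY1R low. Its groups were far apart, with a log2 change of 3.73 (SE 0.40, edgeR adjusted p = 0.000197). FAT4 was higher by 2.17 (SE 0.48). Both FAT genes passed the filter through the NPY1R high libraries, with no NPY1R low library at its level. The share of 31.2% therefore counts genes tested only through the group where they are high. PCDH11X was higher by 1.17 (SE 0.11) and the desmosomal cadherin DSG2 by 0.34 (SE 0.05), from 184 ± 9.99 CPM in NPY1R low to 234 ± 2.58 CPM in NPY1R high (SD, n = 4 each). The calsyntenin CLSTN2 was lower, with a log2 change of -1.23 (SE 0.22).

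Among factors that repress CDH1 or mark epithelial-mesenchymal transition, 3 of 13 tested genes of 17 were called. That is 23.1%, against 13.6% of all tested genes, and the median log2 change of the 13 was -0.01. TWIST1, a repressor of CDH1, had 25.9, 26.3, 26.6 and 25.4 CPM in NPY1R high against 7.25, 5.78, 4.12 and 4.08 CPM in NPY1R low. The NPY1R high libraries were nearly alike and well above the rest, a log2 change of 2.29 (SE 0.17, edgeR adjusted p = 2.44e-05). The intermediate filament gene VIM was higher by 1.09 (SE 0.10), from 54.2 ± 6.88 CPM in NPY1R low to 115 ± 10.3 CPM in NPY1R high (SD, n = 4 each). The epithelial splicing factor ESRP1 was lower, with a log2 change of -0.26 (SE 0.05, edgeR adjusted p = 0.00619), a call that was lost without NPY1R high replicate 4 (adjusted p = 0.0550).

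Of 20 genes for shedding and turnover 18 were tested and 2 called (11.1%, against 13.6% of all tested genes, median -0.02). APH1B, a gamma-secretase subunit, was higher by a log2 of 0.49 (SE 0.13, edgeR adjusted p = 0.0310). Its adjusted p in edgeR was 0.0734 with the replicate block, and 0.0660, 0.0681 and 0.0670 without NPY1R high replicate 1, 3 or 4, and 0.0511 and 0.0875 without NPY1R low replicate 1 or 3. The receptor phosphatase PTPRK was higher by 0.23 (SE 0.05, edgeR adjusted p = 0.0188). The adjusted p of PTPRK in edgeR became 0.0553, 0.0546 and 0.0611 without NPY1R low replicate 1, 2 or 3. Among chromatin factors of the protocadherin clusters 3 of 15 were called (20%, against 13.6% of all tested genes), all lower. The median log2 change of the 15 was -0.09. The cohesin subunits STAG1 and RAD21 had log2 changes of -0.45 (SE 0.06) and -0.32 (SE 0.07), and RAD21 had an adjusted p of 0.0648 in edgeR without NPY1R high replicate 4. SMCHD1, a repressor of clustered protocadherins, was at -0.24 (SE 0.05, edgeR adjusted p = 0.0136). With library totals its adjusted p in edgeR was 0.0565, with upper-quartile factors 0.0816 and with no filter 0.0561. Without NPY1R high replicate 1, 3 or 4 the adjusted p of SMCHD1 in edgeR was 0.0503, 0.0683 and 0.1, and without NPY1R low replicate 4 it was 0.0715. CTCF, at the centre of this list, was not called. Over the 5 lists 8 genes were higher and 6 lower, where 5.78% of all tested genes were higher and 7.81% lower. The lower ones in the lists numbered 16 with the GC offset and 17 with the replicate block added to it. They numbered 16 with the term that set replicates 1 and 2 apart from 3 and 4.

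**Figure D4:**
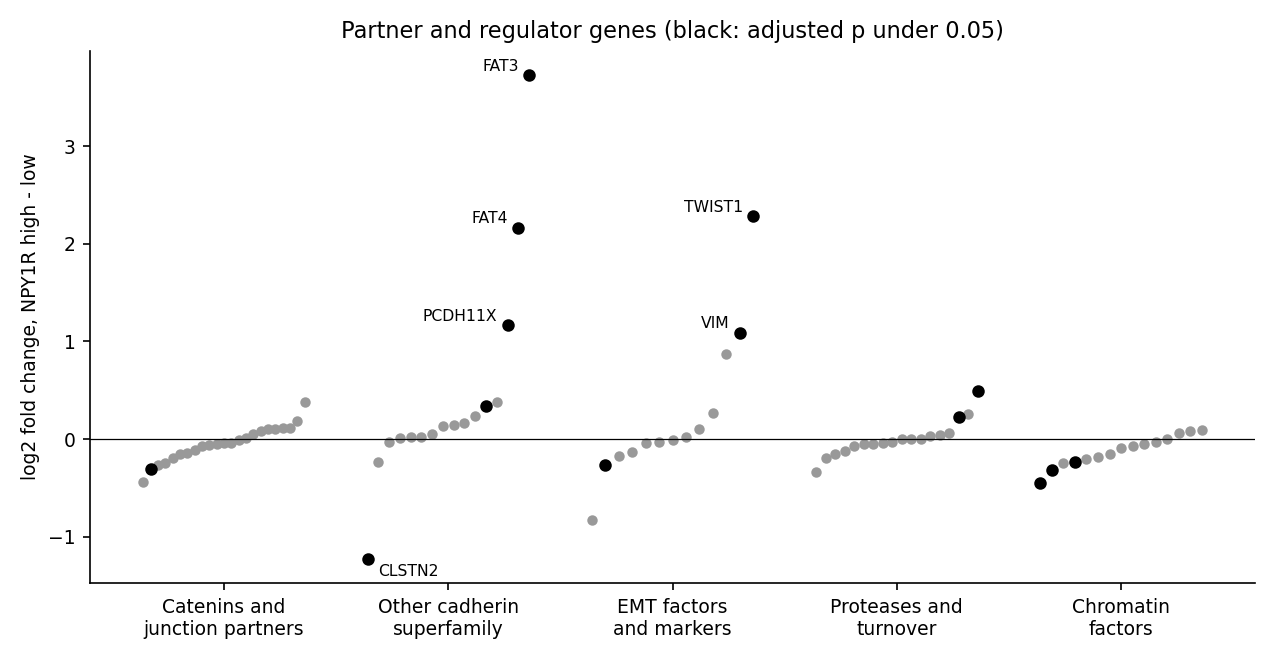
Log2 fold change (NPY1R high minus low, vertical axis) of the tested genes of the 5 lists, ordered by size within each list; black points have an adjusted p under 0.05. FAT3, TWIST1 and FAT4 stand above 2, and the catenins and junction partners lie between -0.44 and 0.38.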

How the data were processed

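RNA of 8 BT474 libraries was sequenced. Per the submitters' processing notes the authors used STAR 2.5.2, RSEM 1.3.0 and hg38, and deposited expected counts per gene symbol. The annotation is not given in the sources used here. Between 7.97% and 8.76% of values per library were not whole, so the counts were rounded. The 8 tables of single libraries held the same values as the series table (0 differing), and no column was without a sample. Genes were kept by filterByExpr (minimum count 10), scaled by TMM and tested by edgeR's quasi-likelihood test, with Benjamini-Hochberg adjustment over all tested genes and a threshold of 0.05. The common biological coefficient of variation was 13.6%. CPM means are TMM-scaled. Log2 CPM used a prior count of 2 for the correlations between libraries and for the GC offset. The log2 differences, NPY1R high minus low, within replicates 1 and 2 and within replicates 3 and 4 were taken after 0.1 CPM was added. DESeq2 1.42.0, edgeR 4.0.16 and limma 3.58.1 ran in R 4.3.3, and the procedure was tested on simulated data.

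Every called member was named, with CDH1, CDH2, CDH3, CDH11, PCDH1, PCDH7, PCDHGC3, 3 catenins, ESR1, PGR and NPY1R whatever their p, and the 4 largest called changes in each direction of a list. Any other name was chosen after its values were seen. Members and lists were chosen with earlier results of these data known. The value of 1 leukocyte marker is not reported here. Older symbols were read for AFDN (MLLT4) and NECTIN1 to NECTIN4 (PVRL1 to PVRL4). Positions, lengths and transcript GC (97.1% of tested genes) came from GENCODE release 29. Alternatives were other scalings, TMM references and filters, DESeq2, limma-voom, a GC offset (spline with 5 degrees of freedom), a replicate block, a term that set replicates 1 and 2 apart from 3 and 4, and leaving out each library; the sum of PCDH11X and PCDH11Y was added after seeing the data. The labels name no molecular identifiers. Precision rests on the spread between libraries and on the count, with a standard error of 0.06 for CDH1 and 0.37 for PCDHB12.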

Additional observations from a re-analysis of the deposited data

Results flagged for a closer look

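In 76 groups of 4 values a single library was checked for standing apart from the other 3, and 2 did, where chance gives about 1 in 20. ESRP1 in NPY1R high replicate 3 was at 279 CPM, where the other 3 libraries of the group lay between 264.2 and 266 CPM. The gamma protocadherin sum in NPY1R low replicate 4 was 17.1 CPM, where the other 3 lay between 21.2 and 21.5 CPM.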

How the results depend on the processing

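Of the 11 member calls, all but PCDHB9 held in every one of 27 settings. Calls were gained under some settings by CDH1, CDH10, CDH18, PCDH17, PCDHB13, PCDHB14, PCDHGB6 and PCDHGB7, the last without NPY1R high replicate 4 (adjusted p 0.0423 in edgeR) or NPY1R low replicate 3 (0.0168). PCDH17 was gained without the filter, without NPY1R high replicate 2 (0.0239) and without NPY1R low replicate 4 (0.0388). The beta sum was called in all 27, with log2 changes from 0.44 to 0.50, and the alpha sum in none. With the GC offset, the genes called lower numbered 1792 in place of 1094, and the partner genes called lower 16 in place of 6. The replicate block with the GC offset gave 1316 genes higher in place of 810, 1980 lower and 17 partner genes lower. The term that set replicates 1 and 2 apart from 3 and 4 gave 1681 lower and 16 partner genes lower. Leaving out 1 library gave 625 to 1064 genes lower, 624 to 1068 higher, 2 to 6 partner genes lower, and gamma sums from 0.18 to 0.38, called only without NPY1R high replicate 3 (adjusted p 0.0442 in edgeR).

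Signs turned for 3 genes that were never called. CTNND1 was at -0.0180 with the GC offset, -0.0181 with the block added, -0.0099 and -0.0151 without replicate 2 of NPY1R high or low, and 0 to 4 decimals without NPY1R low replicate 3, in a range of -0.0151 to 0.0633 when 1 library was left out. That range was -0.2928 to 0.0323 for CDH2, positive without NPY1R high replicate 4, and -0.0928 to 0.0184 for CTNNB1, positive without NPY1R low replicate 4. The cause of these changes was not tested.

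Between NPY1R high and NPY1R low, replicates 1 to 4 had deviations that correlated at 0.34, 0.16, 0.09 and 0.02, all positive. The own number was scored as the best match only if it was best both from NPY1R high to low and from low to high. It was so scored in 0 of 4. The term that set replicates 1 and 2 apart from 3 and 4 gave 1205 genes higher and 1681 lower, in place of 810 and 1094. Whether libraries with the same number share more than that number was not tested. The replicate block gave 805 genes higher and 1028 lower and the same 9 and 2 members. Of the 87 members, 49 fell short of 0.374 CPM in 4 libraries and were not tested. Of these 49, 7 had no count in any library.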
